A study of Populus trichocarpa with 12 samples.

Results

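The data described here are the 12101 genomic regions in which histone H3 lysine 9 acetylation (H3K9ac) was listed as different between severe drought, day 7, and watered day 0 plants, out of 22706 regions listed in the series as a whole. All rows of the day 7 table were taken. The authors had listed a region because a window in it passed a test of these same libraries, so that every region differed by selection. The change of a region was computed here as the log2 of the mean day 7 over the mean day 0 normalised reads, and a region is called gained or lost by the sign of that value alone. Tissue was the differentiating xylem of the stem of Populus trichocarpa, black cottonwood, from greenhouse plants 3 months old. Day 0 plants had full irrigation, with a soil water content of 74% and a xylem water content of 80.6%, and day 7 plants had gone 7 days without water and stood at 29% and 74.3%. The labels give no genotype or clone and do not say whether replicates were separate plants, so the spread behind each p-value is one between samples and may be technical in origin. Each day had 2 H3K9ac libraries and 2 input libraries. No day 7 group with water was among them, so drought cannot be told apart from time or handling.

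H3K9ac is placed by histone acetyltransferases and removed by histone deacetylases. It neutralises the charge of a lysine in the tail of histone H3, is bound by proteins with bromodomains, and in plants is found mainly around the promoters and the first part of transcribed genes. Differentiating xylem is the tissue between the cambium and mature wood in which vessels and fibres expand and lay down secondary walls, and in plants short of water abscisic acid signalling alters the transcription of many genes. In a bulk tissue, fewer cells that carry the mark and less of the mark per cell cannot be told apart.

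Reads within the listed regions, recovered from the normalised values, came to 3862141 in day 7 replicate 1 and 4869871 in replicate 2, and at day 0 to 5458767 in replicate 1 and 5553556 in replicate 2. Day 7 replicate 1 was the shallowest, with a median of 256 reads per region against 323, 359 and 366 in the others. Reads elsewhere in the genome are not in these sums, and the depth of whole libraries is unknown. The listed regions covered 17744 kb, or 30.6% of the 57991 kb that the file header gives as the coverage of windows past its cutoff. The label of the antibody was checked against the input: the recomputed enrichment of H3K9ac over input, the geometric mean of both days, in which the inputs of both enter equally, was at least 2 in 4208 regions (34.8%) and had a median of 1.76. It was under 1 in 121 regions with a value below 0.5 and in a further 164 between 0.5 and 1.

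Gained and lost regions were nearly equal in number and mirrored each other in size. There were 5895 gained regions (48.7%) and 6206 lost regions. In the median gained region H3K9ac at day 7 was 1.30 times the day 0 level (log2 0.38, interquartile range 0.24 to 0.54), and in the median lost region 0.782 times (log2 -0.35, interquartile range -0.53 to -0.22). Most changes were therefore well under 2-fold, and 184 regions (1.52% of those listed) had an absolute log2 change of at least 1, of which 106 were gained (0.876%) and 78 lost (0.645%). Summed over gained regions, the libraries held 2622833 and 2688250 normalised reads at day 7 against 1963194 and 1974430 at day 0. Over lost regions the sums were 2239627 and 2198853 at day 7 against 2953556 and 2934440 at day 0. The replicates of a day lay close together in both sums, and the order of the days is that by which the regions were sorted. The reads added in the gained regions, 686729 on average, were close in size to the change of -724758 in the lost regions, so that the total over all listed regions at day 7 was 0.992 times that at day 0. The change was moderately concentrated: the 589 gained regions with the most added reads held 35.8% of all added reads, and the 620 lost regions with the most missing reads held 33.3% of all missing reads.

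This balance rests on the scaling. The constants that the authors divided by fell within about 1% of the median read ratio of the listed regions themselves, at 1.008 and 1.007 times that factor for day 7 and 0.989 and 0.991 times for day 0, and so centre the listed regions near no change. Dividing the reads by the right-trimmed mean per bin that the header gives moves day 7 against day 0 by -0.18 on the log2 scale, compared with the authors' constants, and 5066 regions (41.9%) are then gained and 7035 lost. Unscaled reads move them by -0.33 and leave 3494 gained and 8574 lost. The strong changes depend on the scaling too. An absolute log2 change of at least 1 was found in 36 gained and 226 lost regions with bin means. Unscaled reads gave 19 and 611, median-of-ratios scaling 121 and 71, and the authors' constants 106 and 78. All directions and counts of strong changes below hold relative to the authors' scaling, unless another is named.

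The libraries of the days separated well in the listed regions. In 5741 regions (47.4%) both day 7 libraries lay above both day 0 libraries, in 6020 (49.7%) both lay below, which together made 97.2% of the list, and in 340 they overlapped. Listing used these libraries, so these shares are a description of the list. Each single day 7 library set against each single day 0 library gave the direction of the means in 99.1% to 99.4% of regions for 3 of the 4 pairings and in 99.04% for replicate 1 of both days. The log2 ratio between the replicates of a day had an SD of 0.161 over regions at day 7 and 0.116 at day 0, against 0.445 to 0.489 between a day 7 and a day 0 library. The spread between replicates was widest where reads were fewest. In regions with a mean of under 200 reads per library the SD between the day 7 replicates was 0.211, where counting error alone would give 0.160, and in regions of 1000 or more reads it was 0.137, where counting error would give 0.0641. At day 0 the SD was 0.172 under 200 reads, lay between 0.112 and 0.115 in the 3 classes from 200 to 1000 reads and was 0.105 above, and in the 4608 regions of 200 to 300 reads it was below the 0.128 of counting error. In limma, a linear model with moderated variances, 10091 regions passed a Benjamini-Hochberg adjusted p of 0.05 over all 12101, 5005 gained (41.4%) and 5086 lost (42.0%), or 83.4% in all. The listing used the same libraries, so limma p-values here are smaller than in an unselected set. The share that passed is likewise a description of the list. The median standard error of a log2 change was 0.08. The 2010 regions that did not pass were weak ones, with a median absolute log2 change of 0.13 and none above 0.27, and 1269 of them were a single window of 1000 bp.

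The level of H3K9ac before and after drought differed between the gained and the lost set. Gained regions had a median of 202 normalised reads per kb at day 0 and 265 at day 7. By library, their medians were 203 and 203 at day 0, and 262 and 270 at day 7. Lost regions started at a median of 283 reads per kb and came to 217, with library medians of 283 and 283 at day 0 and 218 and 215 at day 7. At day 0 the lost regions thus stood above the gained ones, and at day 7 the order was turned round. The listing bears on this by construction, since a region near the lowest listed level at day 0 can hardly enter the list except by being higher at day 7. In the lowest of 5 equal classes by day 0 level, from 69.7 to 196 reads per kb, 96.3% were gained, and in the highest class, from 332 to 3273, 19.3% were. Classing by one day 0 library and taking the change against the other gave shares of 96.2% to 96.5% in the lowest class and left the highest under 20%. Both day 0 libraries entered the listing, so this split cannot remove its effect.

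**Figure D1:**
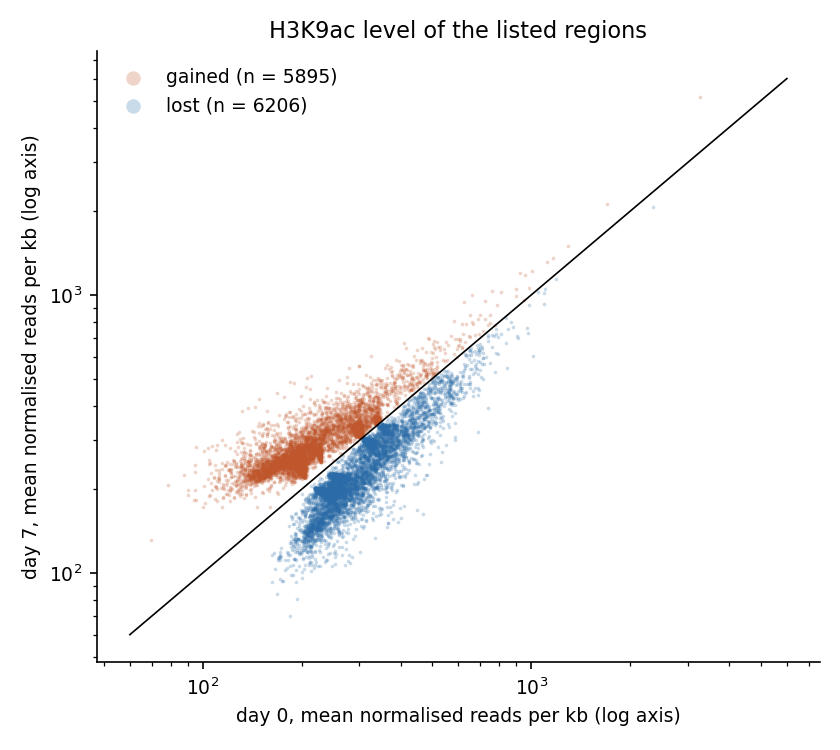
Mean normalised H3K9ac reads per kb at day 0 (x axis) and day 7 (y axis), both on log axes, with 1 point per listed region, gained regions in orange and lost regions in blue, and a line of equal levels. Gained regions lie above the line from a median day 0 level of 202, lost regions below it from a median of 283, and the empty wedge around the line at low levels is where no region was listed.

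The mean of both days, to which each day contributes equally, gave a smaller trend. Gained regions made up 49.2% of class 1 of 5 by mean level, 62.6% of class 2, 47.7% of class 3, 45.4% of class 4 and 38.7% of class 5, from 319 reads per kb upwards. Regions with the most H3K9ac reads per kb were therefore more often lost than gained, 1484 against 936, and 1056 of the lost and 607 of the gained ones passed limma. Together these are 68.7% of the class, the lowest share of the 5 classes, against 83.4% of all regions. Relative to the median listed region, the input was lower at day 7 in 1677 of the 2420 regions of class 5. In class 1 it was higher in 1543 of 2421. Relative to input, the median log2 change in class 5 was 0.31 for gained and -0.17 for lost regions, against 0.25 and -0.28 as measured. The part of the input in the trend was not tested. Under the scaling by bin means the share gained in the highest class was 25.2%, and under median-of-ratios scaling 39.1%. Changes were largest in the lowest class, with no graded order above it. A window with fewer reads needs a larger change to pass the authors' test, and the part of the listing in this was not tested. The median absolute log2 change was 0.57, 0.30, 0.38, 0.34 and 0.27 from class 1 to class 5, and an absolute log2 change of at least 1 was found in 83, 15, 38, 34 and 14 regions.

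Enrichment over input divided the regions differently, and by an amount that depends on how it is measured. With the recomputed enrichment of both days, the gained share went from 45.4% of 3218 regions at 1 to 1.5, through 49.5% of 4390 at 1.5 to 2 and 49.1% of 3584 at 2 to 3, to 51.9% of 624 at 3 or more. With the deposited enrichment of day 0 alone, which holds the day 0 reads that also enter the change, the share in the same 4 ranges was 82.4%, 53.1%, 31.4% and 19.1%. The classes below are those of the recomputed enrichment. The 164 regions at 0.5 to 1 were gained in 35.4% and lost in 106 cases, with a median log2 change of -0.53 in the lost ones, whereas by the deposited day 0 enrichment 99.1% of the regions in that range were gained. The 121 regions under 0.5, where input reads outnumbered H3K9ac reads, were gained in 120 cases with a median log2 change of 0.46. Of these, 116 passed limma, or 95.9% of the class against 83.4% of all listed regions. In that class the input itself was lower at day 7 relative to the median listed region in 104 of 121 regions, with a median of -0.52 on the log2 scale. Losses past a log2 change of -1 were found in 26 regions at an enrichment of 1 to 1.5 and in none of the 624 regions at 3 or more, where gains past 1 numbered 4. Enrichment and level go together, with 12.1% of the lowest and 77.5% of the highest class by mean level at an enrichment of at least 2. Within the lowest level class, 201 of 294 regions with an enrichment of at least 2 were gained (68.4%), against 46.6% of 2127 regions under 2. The input was higher at day 7 in 248 of these 294 regions (median log2 change 0.25), and the median change of the gained ones was 0.60 as measured and 0.35 relative to input. The part of the input in that share was not tested. Within the highest level class the shares were 38.2% and 40.3%.

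**Figure D2:**
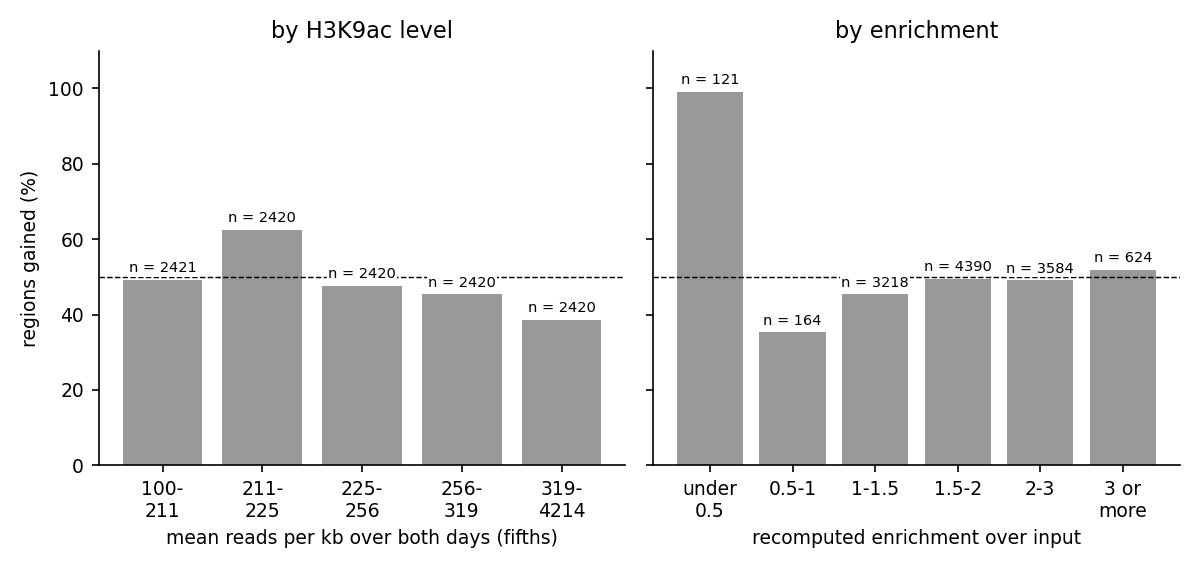
Share of listed regions gained at day 7, in percent, by 5 equal classes of the mean reads per kb over both days (left) and by the recomputed enrichment over input (right), with the number of regions over each bar and a dashed line at 50%. The share falls to 38.7% in the class with the highest level and stands at 99.2% in the 121 regions with an enrichment under 0.5.

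Strong changes made up a larger share of broader regions. A single window of 1000 bp made up 4115 regions, 6005 were 1100 to 1900 bp, 1538 were 2000 to 2900 bp, and 443 were 3000 bp or more, up to 14200 bp. The median log2 change of gained regions was 0.26, 0.42, 0.57 and 0.65 in these classes in turn, and that of lost regions -0.23, -0.38, -0.57 and -0.68. An absolute log2 change of at least 1 was found in 0.122%, 0.766%, 5.79% and 9.93% of the regions of these classes, against 1.52% of all regions. In number these were 5, 46, 89 and 44 regions, so that most lay outside the broadest class. The share past the limma threshold was 69.2%, 88.1%, 98.4% and 99.8%. A region grows as more of its windows pass the authors' test, so that length and size of change share their source, and across the 12101 regions they had a Spearman's rho of 0.495. Neither direction was favoured in the broadest class, with 224 gained and 219 lost (50.6% gained), and here the scaling mattered little, at 50.3% with bin means and 48.5% with unscaled reads. For single windows the share gained was 51.8%, but 38.7% with bin means and 18.0% with unscaled reads.

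**Figure D3:**
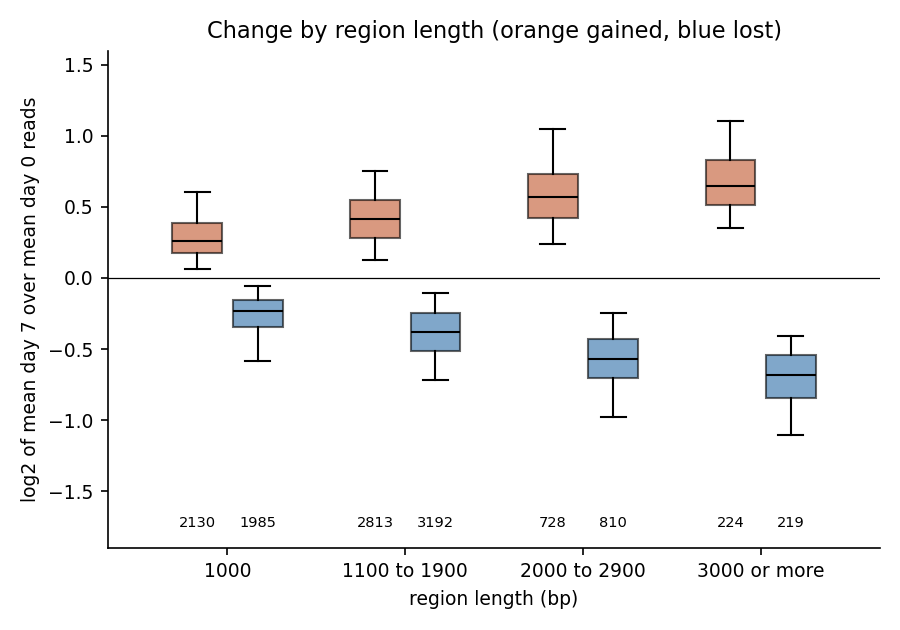
Log2 of mean day 7 over mean day 0 normalised reads by region length in bp, for gained (orange) and lost (blue) regions. Boxes give the quartiles and the median, whiskers the 5th and 95th percentiles, and the numbers at the bottom the regions in each box; the medians move from 0.26 and -0.23 in single windows to 0.65 and -0.68 at 3000 bp or more.

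Single regions are named by their place in these classes, by the rule given with the methods. Coordinates are 1-based, in the unnamed build of the deposited files, and no genes were assigned. Fold changes are ratios of means, and standard errors and adjusted p-values come from limma over all 12101 regions. Across 32 named regions, 15 gained and 17 lost, all directions held under the scaling by bin means, and 31 under unscaled reads. These settings move changes by -0.18 and -0.33 on the log2 scale. A lost region, or a gain well beyond that shift, could hardly change direction. Most named gains were chosen for their size, so these counts are largely set by the choice of regions.

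Among the broadest regions, the largest gain lay on chromosome 17 from 10097501 to 10100500. It held 1172 and 1118 normalised reads in the day 7 libraries against 418 and 370 at day 0, a 2.91-fold rise (log2 change 1.54 with an SE of 0.08, adjusted p = 6.6e-07 by limma). Its deposited enrichment, taken over the inputs of the other day, was 1.28 at day 0 and 3.52 at day 7. Relative to input its log2 change was 1.36. A region of 3900 bp on chromosome 12 from 13159401 to 13163300 rose 2.87-fold, with 1425 and 1641 normalised reads at day 7 against 544 and 524 at day 0 (log2 change 1.52 with an SE of 0.09, adjusted p = 6.6e-07 by limma). In both, the lower day 7 library stood far above the higher day 0 library. The largest losses of this class were of similar size. Between 377201 and 380400 on chromosome 8 the libraries held 1304 and 1206 normalised reads on day 0 and 517 and 461 on day 7 (log2 change -1.36 with an SE of 0.09, adjusted p = 9.2e-07 by limma). Between 4361401 and 4365900 on chromosome 12 they held 1744 and 1862 on day 0 and 739 and 681 on day 7 (log2 change -1.34 with an SE of 0.08, adjusted p = 7.3e-07 by limma). Both lost regions started from about 400 reads per kb, at 392 and 401, and both gained ones from 131 and 137. At day 7 the lost regions stood at 153 and 158 and the gained ones at 382 and 393. These regions were chosen by the ratio of the days, so that a contrast in level on each day follows from the choice.

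The largest single gain and the largest single loss of the whole list were in the class of 2000 to 2900 bp. On chromosome 10 from 1551101 to 1553400, H3K9ac rose 2.98-fold, from 231 and 209 normalised reads at day 0 to 599 and 711 at day 7 (adjusted p = 7.7e-07 by limma). Its deposited enrichment, taken over the inputs of the other day, was 1.31 at day 0 and 4.44 at day 7. On chromosome 11 from 4987601 to 4989800 it rose 2.75-fold, to 850 and 890 normalised reads from 360 and 272. The largest loss, on chromosome 19 from 11045401 to 11047900, was from 1119 and 1224 normalised reads to 437 and 379 (2.87-fold lower, adjusted p = 7.7e-07 by limma), and the deposited enrichment there was 5.70 at day 0 and 1.52 at day 7. A loss on chromosome 1 from 27932601 to 27935200 was of similar size, with 1172 and 1155 normalised reads at day 0 and 511 and 367 at day 7 (2.65-fold lower). Its deposited enrichment at day 7 was 0.85. Where input moves with H3K9ac, the exchanged inputs widen the gap between the deposited enrichments. Relative to input, the log2 changes of the 2 gains were 1.13 and 1.36, against 1.57 and 1.46 as measured. Those of the 2 losses were -1.39 and -1.11, against -1.52 and -1.41. At day 0 the lost pair stood at 469 and 448 reads per kb, and the gains on chromosomes 10 and 11 at 95.7 and 144. At day 7 the lost pair stood at 163 and 169, and the gains at 285 and 395. The choice by the ratio of the days bears on these levels too.

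Regions of 1100 to 1900 bp reached nearly the same folds from fewer reads, and single windows of 1000 bp reached smaller ones. In the class of 1100 to 1900 bp, chromosome 11 from 2826801 to 2828400 held 105 and 145 normalised reads at day 0 and 339 and 326 at day 7, a 2.66-fold rise (log2 change 1.41 with an SE of 0.13, adjusted p = 5e-06 by limma). Chromosome 1 from 9362401 to 9363700 fell 2.63-fold, from 222 and 255 normalised reads to 95.7 and 86.3 (adjusted p = 4.2e-06 by limma). Chromosome 1 from 599401 to 601300 fell 2.54-fold, from 528 and 501 to 244 and 162. The gain on chromosome 11 had tightly grouped day 7 libraries, whereas those of the last loss lay further apart. Among single windows, chromosome 10 from 13290501 to 13291500 rose 2.45-fold, from 82.9 and 106 normalised reads to 237 and 226 (log2 change 1.29 with an SE of 0.13, adjusted p = 1.1e-05 by limma). The largest losses of single windows were both on chromosome 2. From 9737401 to 9738400 the reads fell 1.86-fold, from 212 and 210 to 95.7 and 131, and from 22997401 to 22998400 they fell 1.84-fold, from 329 and 294 to 201 and 136. No single window was lost by a log2 change of -1 or less, while 5 were gained by at least 1.

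**Figure D4:**
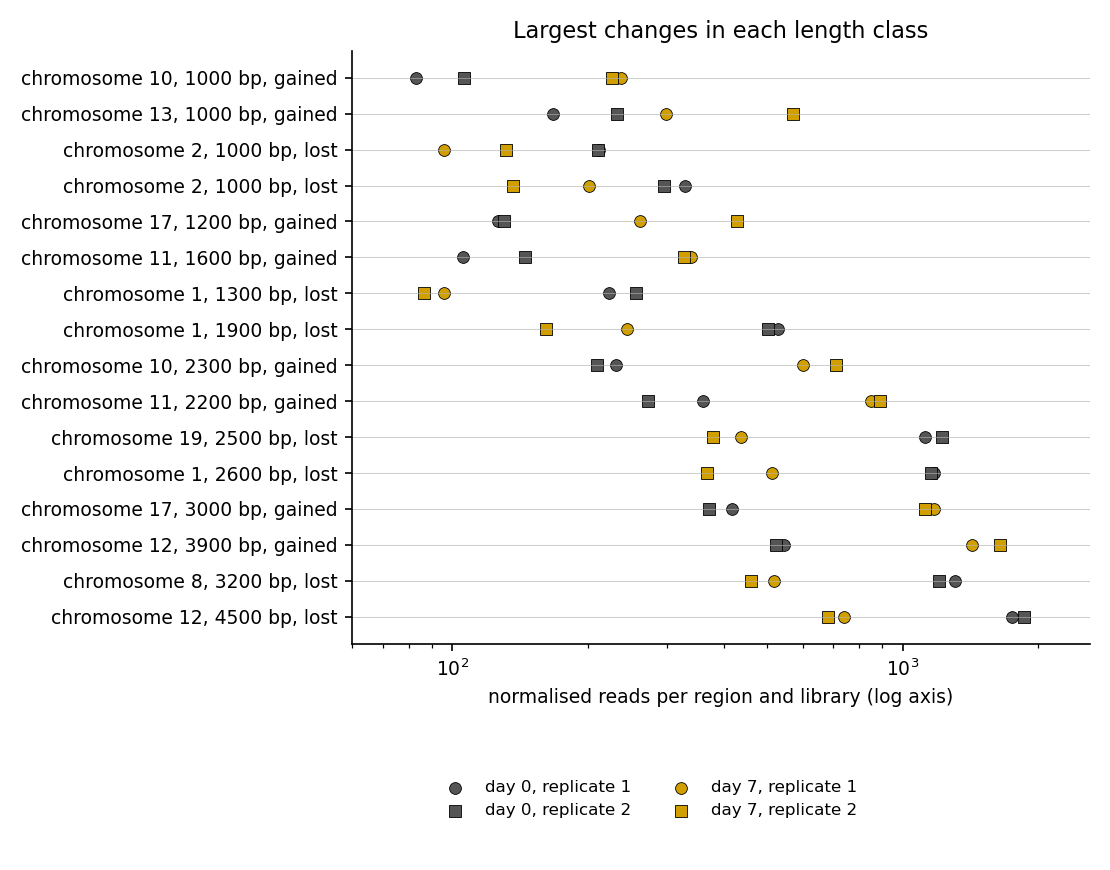
Normalised H3K9ac reads per region in each library (log axis) for the 2 largest gains and 2 largest losses in each of 4 length classes, with day 0 in grey, day 7 in yellow, replicate 1 as circles and replicate 2 as squares. The days do not overlap in any of the 16 regions; the day 7 replicates lie widest apart on chromosome 13, at 298 and 569.

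The longest and the highest regions changed less than the regions above, which were chosen for the size of their change. In all regions of 3000 bp or more the median log2 change was 0.65 for gained and -0.68 for lost ones. The longest gained region, 14200 bp on chromosome 13 from 14869601 to 14883800, held 10088 and 10378 normalised reads at day 0 and 13350 and 13752 at day 7, a 1.32-fold rise (adjusted p = 3.5e-06 by limma), with an enrichment of 0.144. The next, 7300 bp on chromosome 2 from 18382901 to 18390200, rose 1.57-fold, from 1989 and 1845 normalised reads to 3125 and 2880, with an enrichment of 0.169. Both long gains were thus regions where the input held more reads than H3K9ac. The longest lost regions had more H3K9ac than input. Over 5400 bp on chromosome 5 from 3836401 to 3841800 reads fell 1.49-fold, from 1931 and 1917 to 1330 and 1250, at an enrichment of 1.98. Over 5200 bp on chromosome 2 from 9027701 to 9032900 they fell 1.69-fold, from 2714 and 2782 to 1783 and 1468, at an enrichment of 2.14.

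By reads per kb at day 0, the highest gained region lay on chromosome 5 from 10781001 to 10783000. It held 5977 and 7116 normalised reads at day 0 and 10246 and 10371 at day 7 (log2 change 0.66 with an SE of 0.06, adjusted p = 8e-06 by limma), or 3273 and 5154 reads per kb. The second, on chromosome 13 from 14751401 to 14758400, had an enrichment of 0.143 and rose 1.25-fold, and with unscaled reads its log2 change was -0.01. The highest lost regions were weak. On scaffold 20 from 909501 to 911000 the libraries held 3800 and 3231 normalised reads at day 0 and 3074 and 3130 at day 7 (log2 change -0.18 with an SE of 0.07, adjusted p = 0.037 by limma), and without day 0 replicate 1 the log2 change was -0.06. On chromosome 5 from 21573501 to 21574900 they held 1550 and 1519 at day 0 and 1416 and 1178 at day 7 (log2 change -0.24 with an SE of 0.09, adjusted p = 0.019 by limma), and without day 7 replicate 2 the log2 change was -0.12. Neither passed limma without that library, in a fit that takes the lone library of a day to vary like the pair of the other day. The latter region had an enrichment of 5.21, and no region with an enrichment of 3 or more was lost past a log2 change of -0.92.

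Input differed between the days in some regions, and H3K9ac moved with it to a degree. Per the file header, the day 7 libraries were divided by day 0 inputs and the day 0 libraries by day 7 inputs, so the ratio of the inputs can be read from the table, here relative to the median region. Across the 12101 regions of the same libraries, the change of H3K9ac and that of input had a Spearman's rho of 0.205. Taken relative to input, 5287 of 5895 gained regions (89.7%) and 5546 of 6206 lost regions (89.4%) kept their direction. The 1268 regions that did not were mostly weak, with 740 of them among the 2391 regions with an absolute log2 change under 0.2, and 4 among the 184 regions at 1 or more. Of the named regions, the input moved most at a pair of gains. On chromosome 13 from 6414301 to 6415300 the day 7 libraries held 298 and 569 normalised reads and the day 0 libraries 168 and 232 (log2 change 1.12 with an SE of 0.22, adjusted p = 0.001 by limma; log2 0.60 without day 7 replicate 2), and its input had a log2 change of 2.62. Between 3917401 and 3918600 on chromosome 17 they held 261 and 429 against 126 and 130 (log2 change 1.43 with an SE of 0.17, adjusted p = 3.4e-05 by limma), with a log2 change of 2.36 in the input. Relative to input, these gains become log2 values of -1.503 and -0.93. Among lost regions that passed limma, the log2 change of the input was the most negative on chromosome 12 from 555101 to 559100, at -1.13, where H3K9ac fell by 0.63 on the log2 scale, from 1302 and 1198 normalised reads to 773 and 843 (adjusted p = 5e-05 by limma). On chromosome 14 from 5275501 to 5277200 input was lower by -0.98 and H3K9ac fell 1.45-fold, from 663 and 639 to 462 and 437 (adjusted p = 0.00011 by limma). Relative to input both stood higher at day 7, at 0.50 and 0.45.

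Gains and losses abutted at many places. There were 241 pairs of neighbouring regions that overlapped by at least 1 bp, by a median of 400 bp, and in 239 of them a gain overlapped a loss. Overlapping windows of the same direction tend to be joined into 1 region, so that this share is set by how regions are built. The number of such places was not set against an expected number. It also rests on the authors' scaling, since bin means alone shift log2 changes by -0.18. Of these pairs, 121 had the gain at the lower coordinate and 118 the loss. A further 30 pairs lay under 100 bp apart, all of them of opposite direction. Of 724 pairs at least 100 but under 1000 bp apart, 28.7% were opposite, and of 1991 pairs at least 1000 but under 5000 bp apart, 35.7%. In most overlapping pairs at least 1 side was weak, with a median of 0.12 for the smaller absolute log2 change, and in 67 pairs (27.8%) both sides passed limma, against 74.4% of the pairs at least 100 but under 1000 bp apart.

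The strongest such pair lay on chromosome 17. From 10355401 to 10356400 the day 0 libraries held 240 and 222 normalised reads and the day 7 libraries 191 and 103 (log2 change -0.65 with an SE of 0.20, adjusted p = 0.0066 by limma; log2 -0.27 without day 7 replicate 2). From 10356301 to 10357300, sharing 100 bp with it, they held 112 and 123 at day 0 and 227 and 220 at day 7 (log2 change 0.93 with an SE of 0.10, adjusted p = 2.2e-05 by limma). The higher of the neighbouring windows at day 0 was thus the lower at day 7, at 147 against 223 reads per kb. On chromosome 1, reads from 50258501 to 50260900 rose 1.51-fold, from 398 and 447 to 656 and 623 (adjusted p = 8.5e-05 by limma). The adjoining stretch from 50260601 to 50261600 fell 1.63-fold, from 204 and 218 to 128 and 131 (adjusted p = 9.3e-05 by limma). Another pair, also on chromosome 1, had a gain from 9132201 to 9133800, with 192 and 196 normalised reads at day 0 and 286 and 295 at day 7 (adjusted p = 6.2e-05 by limma). It was followed by a loss from 9133601 to 9136100, with 664 and 712 at day 0 and 424 and 388 at day 7 (adjusted p = 1.8e-05 by limma). In that gain the input was higher by a log2 value of 0.65 and the change relative to input was -0.067, while the losses of both chromosome 1 pairs were as large relative to input as without it, at -0.74 and -0.84. The chromosome 1 gain from 50258501 was 0.39 relative to input, against 0.60 as measured. Both sides of the chromosome 17 pair were smaller relative to input, at -0.41 and 0.66.

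The listed regions lay on all 19 chromosomes and were denser towards the ends. Chromosome lengths are not in the files, so position was measured over the span from the first to the last listed region, 392 Mb in all. Of 10 equal stretches of this span, the first held 36.6 listed regions per Mb and the last 38.1, against 24.3 and 25.3 in the middle pair. The outer stretches together held more regions than the middle pair on 13 of the 19 chromosomes. Direction did not follow this gradient, with a gained share between 46.2% and 51.5% in every stretch. In the authors' scaling the median change was also alike, from 0.35 to 0.42 for gained and from -0.37 to -0.34 for lost regions.

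**Figure D5:**
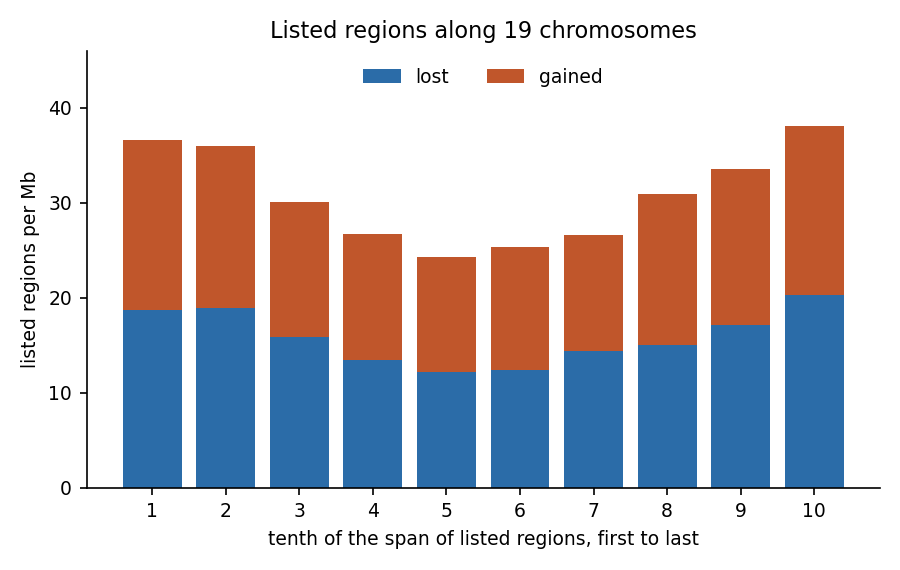
Listed regions per Mb in each of 10 equal stretches of the span between the first and the last listed region, summed over 19 chromosomes, with lost regions in blue and gained regions in orange stacked on them. Density runs from 36.6 per Mb in the first stretch through 24.3 near the middle to 38.1 in the last, and the share of gained regions stays between 46.2% and 51.5%.

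In blocks of 1 Mb, gains and losses were mixed. Of 400 blocks with a listed region, 387 held both directions, and the median block held 13 gained and 14 lost regions. The block with the most gained regions, chromosome 10 from 18000001 to 19000000, had 43 gained and 41 lost, and was the densest of all with 84. The next by gained regions were chromosome 2 from 3000001 to 4000000 and chromosome 5 from 25000001 to 26000000, each with 41 gained and 24 lost. Chromosome 2 also held the 3 blocks with the most lost regions. Its first Mb had 47 lost and 26 gained, the block from 23000001 to 24000000 had 43 and 21, and the block from 2000001 to 3000000 had 42 and 26, next to the block with many gains. Blocks with 10 or fewer listed regions, 64 in number, held 384 regions of which 57.3% were gained, at a median enrichment of 1.59, against 47.8% of the 6213 regions in blocks with 41 or more, at 1.78.

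The share of strong changes varied between chromosomes. Chromosome 11 had the largest share of regions with an absolute log2 change of at least 1, 3.59% of 418, with 11 gained and 4 lost, and chromosome 16 the smallest, 0.229% of 436, with 1 lost. Over all listed regions the share was 1.52%. On chromosome 6, 9 of 10 such regions were gained, and on chromosome 13, 6 of 9 were lost. These counts are small, the chromosomes were singled out after their values had been seen, and no test was made between them.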

How the data were processed

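ChIP-seq libraries of H3K9ac and input were made per the labels' protocols from chromatin sonicated to 200 to 1000 bp, with 18 cycles of PCR on fragments of about 250 bp. Bowtie is the tool named per the submitters' processing notes, with neither role nor version given in the sources used here. The authors ran diffReps 1.55.4 (per the file headers), which slid a 1000 bp window in steps of 100 bp, tested it with a negative binomial model and kept it at a window p-value of up to 0.0001. The deposited cells hold the normalised reads of both libraries of a group, separated by a semicolon (another form of value than a plain count). The deposited signal is their mean, and the deposited ratio is the fold enrichment of a group over background inputs. The deposited fold change, adjusted p and event were not used.

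Normalised reads times a constant near that of the header were whole within 0.1 in 100% of regions for each library, and in 18.9% to 21.4% with the other replicate's constant. These are the recovered reads. PCR reads are not independent molecules, so counting errors cover counting only. In 590 regions of identical coordinates in the day 5 and day 7 tables, the background of the drought libraries varied between tables by a median of 0.00332 (log2) and that of day 0 by 0.318, as the header's exchanged inputs give. limma 3.58.1 (R 4.3.3) was run on log2 normalised reads without a pseudocount, letting the prior variance follow the mean level, with p-values adjusted after Benjamini and Hochberg over all regions, and was tested on simulated data. With 2 libraries per day an exact permutation test cannot go below p = 0.333, and none was run.

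Named regions passed limma with days that did not overlap. They were, per length class, the 2 largest gains and 2 largest losses, then the 2 longest and the 2 highest at day 0 per direction, 3 overlapping pairs of opposite direction with the largest smaller change, and per direction the 2 whose input moved most the same way. The 1 Mb blocks named were the 3 with the most gained and the 3 with the most lost regions. Members, classes and lists were chosen with earlier results of these data known. The header names chromosome lengths as pop3 and no build in full. The gene table at hand is of assembly P.trichocarpa_v4.1, so no gene, tissue marker or sequence was assigned.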

Additional observations from a re-analysis of the deposited data

How the results depend on the processing

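limma called 10091 regions. Without scaling it called 5513, of which 5.17% were gained, and 3200 among the regions with an enrichment of at least 2, fewer because 4208 were tested, of which 51.1% were gained (1636 against 1564). The gained share, 49.6% with the authors' constants, was 52.4% with median-of-ratios scaling (5242 gained, 4770 lost), 31.5% with bin means (2854 and 6199, a setting chosen after seeing the data) and 49.9% with limma voom on recovered reads, also chosen after. Leaving out each library in turn, with the lone library assumed to vary like the other day's pair, gave 8325 to 9812 calls and a gained share of 49.4% to 50.6%. The median log2 change of gained regions, 0.38, was 0.057 unscaled, 0.41 with median-of-ratios, 0.20 with bin means, 0.34 relative to input, 0.43 in called regions and 0.35 to 0.39 without 1 library. That of lost regions, -0.35, was -0.68, -0.33, -0.53, -0.33, -0.41 and -0.35 to -0.34 in the same order. The count moved by less than 1.5 times with a pseudocount of 10, no trend of the prior variance or overlapping regions left out. In these settings the share moved by less than its spread between library pairs. A minimum mean of 100 normalised reads left out none of the 12101 regions, so it could change nothing. The labels number replicates 1 and 2 on both days without saying what they share. A fit with the replicate block called 10096 regions, and the deviations of same-numbered libraries correlated at 0.0939 over regions.

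Relative to input, 7 of 32 named regions changed direction: chromosome 13 from 6414301 (-1.503), chromosome 17 from 3917401 (-0.93), chromosome 1 from 9132201 (-0.067), scaffold 20 (0.17), chromosome 5 from 21573501 (0.20), chromosome 12 from 555101 (0.50) and chromosome 14 from 5275501 (0.45). Of the named regions, 31 or 32 passed limma without any 1 library, 31 with voom and 32 with the block. The planned edgeR and DESeq2 fits and TMM scaling were not run, since the deposited cells hold normalised values. The cause of the other shifts was not tested.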

Other observations

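The list also held 26 regions on 5 scaffolds outside the 19 chromosomes, of which 20 were gained (76.9%, against 48.7% of all listed regions). All 20 passed an adjusted p of 0.05 in limma, as did 3 of the 6 lost ones. Together these are 88.5% of the 26, near the 83.4% of all listed regions. Scaffold 20 carried 18 of them, 12 gained and 6 lost, and included the region from 924501 to 930500 with 5360 and 5741 normalised reads at day 0 and 7068 and 7295 at day 7 (log2 0.37). All 5 regions of scaffold 21 were gained, at a median enrichment of 0.150.

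Mild drought, day 5, was compared by the authors with the same day 0 libraries in a table normalised separately, so its values stand here only beside those of day 7. Of the 32 named regions, 24 had a listed day 5 region that shared at least 50% of each, and 8 had none. The share over all listed regions is not given here, so whether 24 is unusual cannot be told. The day 0 libraries of both tables also entered the choice of the named regions. Most of the 24 differed in their bounds between the tables, and those changes belong to stretches of other lengths and are not set side by side. In 6 regions, all of them lost, the coordinates were identical. On chromosome 19 from 11045401 to 11047900 the log2 change was -1.61 at day 5, with 393 and 443 normalised reads, and -1.52 at day 7. On chromosome 1 it was -1.47 and -1.41 from 27932601 to 27935200, -1.31 and -1.39 from 9362401 to 9363700, and -1.09 and -1.34 from 599401 to 601300. On chromosome 2 from 9737401 to 9738400 it was -0.69 and -0.89, and on chromosome 12 from 555101 to 559100 it was -0.66 and -0.63. In these 6 regions the loss was listed on both days, and no test was made of day 5 against day 7.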
